A study of Homo sapiens with 4 samples.

Results

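Kinesins are motor proteins that use ATP to move along microtubules or to shorten their ends. Mitotic kinesins build the spindle, align chromosomes and drive the last cut between daughter cells, and their transcripts peak late in the cell cycle. Transport kinesins carry vesicles, organelles and RNA through the cell in every phase, and kinesin-1 does so as heavy chains (KIF5) bound to light chains (KLC) that hold the cargo. The kinesin family was taken here as every probe set whose only annotated gene symbol starts with KIF and a digit, or is KLC1, KLC2, KLC3 or KLC4. That gave 96 probe sets of 46 genes, out of 19775 genes with a probe set of their own. By role, 12 were mitotic kinesins, 17 transport kinesins, 6 kinesins of cilia and Hedgehog signalling, 7 other kinesins and 4 antisense RNAs that share a kinesin's name but encode no motor.

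The cells were HCT116, an established human colorectal cancer line, transfected by a lipid reagent with control siRNA (2 arrays) or with TET1 siRNA (2 arrays), and each sample's RNA was read on 1 Affymetrix array. TET1 is a dioxygenase that oxidises methylated cytosine, and the stated aim was to find genes it regulates. The samples of a group are described as biological duplicates. The sequence of the siRNAs, whether the TET1 siRNA was 1 duplex or a pool, and the time from transfection to harvest are unknown here. With 1 TET1 siRNA group, loss of TET1 and other effects of that siRNA cannot be told apart. On the control arrays the TET1 probe set read 58.1 and 59.6, and on the TET1 siRNA arrays 14.6 and 15.0, so 25.1% of the control signal was left (log2 difference -1.28, SE 0.20, adjusted p = 9.28e-04).

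Signals are in arbitrary units on a linear scale, and each gene is represented by its brightest probe set. A log2 difference is the mean of log2(signal + 16) with TET1 siRNA minus that with control siRNA. The words rose and fell are kept for a limma p, adjusted by Benjamini-Hochberg over all 12389 genes above a filter on dim signals, that was below 0.05. Median signals of all probe sets were 13.9 to 15.5 on the 4 arrays, and the ratio of 3' to 5' signals, a sign of RNA integrity, was 0.846 to 0.884 for GAPDH and 1.19 to 1.28 for beta-actin. Of the 10 markers of colonic epithelium 7 lay above the filter, with EPCAM, KRT8, KRT18 and KRT19 bright on every array, while CDX1, CDX2 and LGALS4 lay below it. Of these markers KRT8 rose (0.32) and CDH1, the epithelial cadherin, fell by 1.16 from 925.1 and 1059.0 to 474.8 and 394.0; the summed list read 17677.8 and 18298.9 against 19602.4 and 19644.3. Of 10 fibroblast markers 3 lay above the filter and COL1A1 rose (0.47), and of 9 lymphocyte markers 2 lay above it and none passed. The part of these shifts in the kinesin values was not tested. Signals of different probe sets are not comparable as levels, so genes are compared below only by their change.

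The promoters of the mitotic kinesins share short elements that those of the transport kinesins mostly lack, and the sequences are shown because these genes moved together. Late cell cycle genes are known for a hexamer near the start site, the cell cycle genes homology region (CHR), read by the DREAM and MuvB-MYBL2-FOXM1 complexes, and for CCAAT boxes read by NF-Y. Windows of 300 bases, 250 before to 50 after the start, came from RefSeq (GRCh38.p14) for 37 of the 46 genes. They were searched on both strands for TTTGAA, the usual CHR, for its variants TTTAAA and TTCGAA, which each read the same on both strands, and for CCAAT. Any of the 3 hexamers stood in the windows of 11 of 12 mitotic kinesins (91.7%) and of 2 of 13 transport kinesins (15.4%), against 23.0% of the 10106 tested genes with a window. CCAAT stood in 9 of 12 and 4 of 13, against 43.1%. Both kinds stood together in 9 of 12 mitotic and 1 of 13 transport kinesins, against 9.85%. Where a gene has several windows, any of them counted. A match is only a match of letters, and the data hold no measure of binding. The classes were chosen with results known, and KIF2A, which rose, is not among the mitotic kinesins counted. Whether the elements bear on the changes was not tested. The windows of mitotic and of transport kinesins had the same median number of CpG dinucleotides, the bases at which TET1 acts (29, against 25 over all tested genes).

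Below are the 140 bases before the start of the 5 mitotic kinesins that fell most, of KIF11 (added after its matches were seen) and of the 3 transport kinesins that changed most (ranked by the log2 difference of the brightest probe set), 5′ to 3′ with matches in capitals. The stretches are chr5:138178972-138179111 (plus strand) for KIF20A, chr10:89701450-89701589 (plus) for KIF20B, chr17:44947774-44947913 (minus) for KIF18B and chrX:70289964-70290103 (plus) for KIF4A. They are chr1:200620752-200620891 (minus) for KIF14 and chr10:92592990-92593129 (plus) for KIF11. For the transport kinesins they are chr19:45340610-45340749 (plus) for KLC3, chr5:132737547-132737686 (minus) for KIF3A and chr10:32056426-32056565 (minus) for KIF5B.
KIF20A: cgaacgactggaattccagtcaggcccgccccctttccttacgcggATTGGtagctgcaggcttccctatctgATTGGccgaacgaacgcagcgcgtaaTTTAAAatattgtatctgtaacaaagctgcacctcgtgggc
KIF20B: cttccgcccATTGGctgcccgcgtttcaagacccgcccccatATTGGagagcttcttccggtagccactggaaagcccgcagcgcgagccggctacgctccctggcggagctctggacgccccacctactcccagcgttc
KIF18B: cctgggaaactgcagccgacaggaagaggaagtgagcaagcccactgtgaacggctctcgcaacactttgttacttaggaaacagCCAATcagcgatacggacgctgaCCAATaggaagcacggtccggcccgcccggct
KIF4A: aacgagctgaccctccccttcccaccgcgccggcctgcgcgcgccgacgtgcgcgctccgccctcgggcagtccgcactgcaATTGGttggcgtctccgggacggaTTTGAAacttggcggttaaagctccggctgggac
KIF14: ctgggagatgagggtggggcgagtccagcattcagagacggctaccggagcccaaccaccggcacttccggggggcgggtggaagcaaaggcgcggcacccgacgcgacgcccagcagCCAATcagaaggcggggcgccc
KIF11: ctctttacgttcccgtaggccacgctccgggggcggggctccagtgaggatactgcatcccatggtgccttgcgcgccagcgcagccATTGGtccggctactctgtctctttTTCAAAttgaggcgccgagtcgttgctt
KLC3: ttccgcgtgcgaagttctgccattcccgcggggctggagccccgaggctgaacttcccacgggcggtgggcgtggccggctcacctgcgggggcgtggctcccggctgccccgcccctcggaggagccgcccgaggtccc
KIF3A: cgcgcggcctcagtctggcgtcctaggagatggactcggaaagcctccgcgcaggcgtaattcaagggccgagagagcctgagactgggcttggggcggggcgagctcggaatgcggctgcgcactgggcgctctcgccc
KIF5B: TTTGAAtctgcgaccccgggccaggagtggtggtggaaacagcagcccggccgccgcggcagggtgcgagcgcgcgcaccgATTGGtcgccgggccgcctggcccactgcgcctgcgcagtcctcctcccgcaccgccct
In KIF20A the hexamer TTTAAA starts 41 bases before the start, with CCAAT boxes 67 and 94 bases before it. KIF4A has TTTGAA at 34 and a CCAAT box at 58 bases before the start, and KIF11 has them at 28 and 53. In KIF14, KIF18B and KIF20B the TTTGAA begins 1, 2 and 24 bases after the start, outside the stretches shown. KIF20B has another at 30 bases after it. Only the CCAAT boxes of these 3 genes appear in capitals. KIF5B is the transport kinesin with both kinds, and there the hexamer lies far upstream, at 140 bases, on the other side of the CCAAT box at 59 bases. The stretches of KLC3 and KIF3A hold no match.

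**Figure D1:**
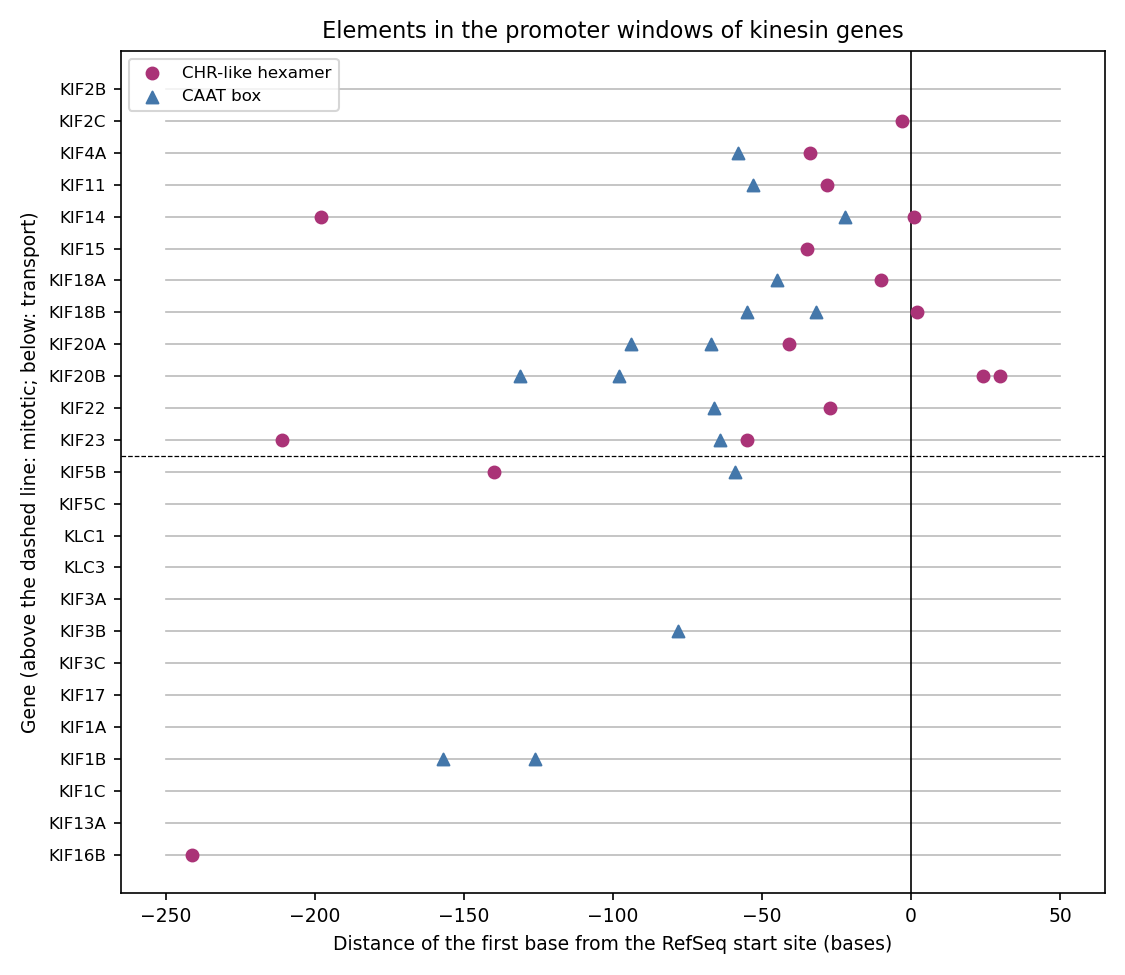
Distance in bases from the RefSeq start site (x axis) of each CHR-like hexamer (circles) and CCAAT box (triangles, named CAAT box in the legend) in the promoter windows of mitotic (above the dashed line) and transport kinesin genes (below it), 1 window a gene. In 11 of the 12 mitotic kinesins a hexamer lies between 55 bases before and 24 bases after the start. Of these, KIF14 and KIF23 have a further hexamer, 198 and 211 bases before the start, and KIF20B has one 30 bases after it. The 2 transport kinesins with a hexamer have it 140 and 241 bases before.

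The mitotic kinesins were lower as a group after TET1 siRNA. Of 11 tested, 9 fell, none rose and 2 did not pass. Of all genes tested, 10.6% fell. These counts depend on the classes, which were chosen with results known: KIF2A, which acts at spindle poles and in neurites, was placed with the other kinesins, and it rose (0.28, adjusted p = 0.0462). The median log2 difference was -0.58 over the 11 tested and -0.57 over all 12 on the array, against 0.0098 over all genes tested. In all 11 both TET1 siRNA arrays lay below both control arrays, a pattern found downward in 28.1% of genes tested. The median member stood 0.021 above and 0.021 below its control mean on the 2 control arrays, and 0.59 and 0.58 below it on the TET1 siRNA arrays (log2). Whether fewer cells were in mitosis or each cell held less of these transcripts cannot be told apart in bulk RNA.

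Both mitotic kinesins with the largest falls, KIF20A and KIF20B, act at the central spindle and in cytokinesis, as do KIF14 and KIF23. KIF20A (MKLP2), which brings the chromosomal passenger complex to the central spindle, read 523.1 and 508.2 on the control arrays and 222.2 and 241.1 after TET1 siRNA. The groups lay far apart, and the TET1 siRNA mean was 44.9% of control (log2 difference -1.10, SE 0.094, adjusted p = 1.9e-05). KIF20B (MPP1), which also acts in cytokinesis, read 240.3 and 209.8 against 124.9 and 112.1, or 52.7% of control (-0.84, SE 0.12, adjusted p = 6.55e-04). KIF14, which anchors citron kinase at the midbody, read 301.2 and 328.6 against 185.4 and 207.7 (-0.64, adjusted p = 0.00151). Its second probe set, tested by itself, fell by 0.67. KIF23 (MKLP1), the motor subunit of centralspindlin, read 231.5 and 224.3 against 152.5 and 146.8 (-0.56, adjusted p = 0.00404). With the mean of all probe sets, which brings in a dim one, KIF23 was at -0.43 (adjusted p = 0.0871).

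Both chromosome-bound kinesins, KIF4A and KIF22, fell. KIF4A, which works with PRC1 to set the length of central spindle microtubules, read 331.8 and 318.5 against 189.3 and 208.4, or 61.2% of control (-0.67, SE 0.10, adjusted p = 8.99e-04). KIF4B is a near-identical retrocopy that was not analysed here, so the share of the KIF4A signal that came from it is unknown. KIF22 (Kid), which pushes chromosome arms away from the poles, read 206.8 and 186.5 against 124.8 and 144.2 (-0.50, adjusted p = 0.0141). Its second probe set read 144.4 and 128.6 against 82.6 and 81.0 and fell by 0.64.

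Among motors of spindle assembly and microtubule ends, KIF2C (MCAK), which depolymerises microtubules at centromeres, read 866.3 and 887.9 against 599.1 and 561.3 (-0.58, SE 0.079, adjusted p = 3.61e-04). Its other probe set fell by 0.85, from a mean of 455.1 to 245.3. KIF18B, which shortens astral microtubules, read 268.2 and 324.3 against 154.2 and 191.1 (-0.73, adjusted p = 0.00217). KIF11 (Eg5), which pushes spindle poles apart, read 217.7 and 213.4 against 143.5 and 159.6, or 70.3% of control (-0.47, SE 0.11, adjusted p = 0.0129).

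The 2 that did not pass had the smallest differences of the group. KIF15, which can stand in for KIF11 in keeping the spindle bipolar, read 137.9 and 128.8 against 94.5 and 107.5 (log2 difference -0.35, 95% interval -0.65 to -0.059, adjusted p = 0.0843). KIF18A, which damps chromosome movements at the metaphase plate, read 252.7 and 212.6 against 164.1 and 194.6 (-0.35, interval -0.63 to -0.070, adjusted p = 0.0724). These single-gene intervals are not adjusted for the number of genes. KIF2B was below the filter, at signals of 0.8 to 6.0. KIF11 and KIF22 did not pass without control siRNA replicate 1 (adjusted p = 0.0544 and 0.0812) or without TET1 siRNA replicate 1 (0.0922 and 0.104), which left 7 falls in either case. When a change of at least 1.5-fold on the log2(signal + 16) scale was also asked for, 5 mitotic kinesins were left (KIF4A, KIF14, KIF18B, KIF20A and KIF20B). The added 16 shrinks a fold, and the mean signals of KIF2C and KIF23 differed 1.51-fold and 1.52-fold.

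**Figure D2:**
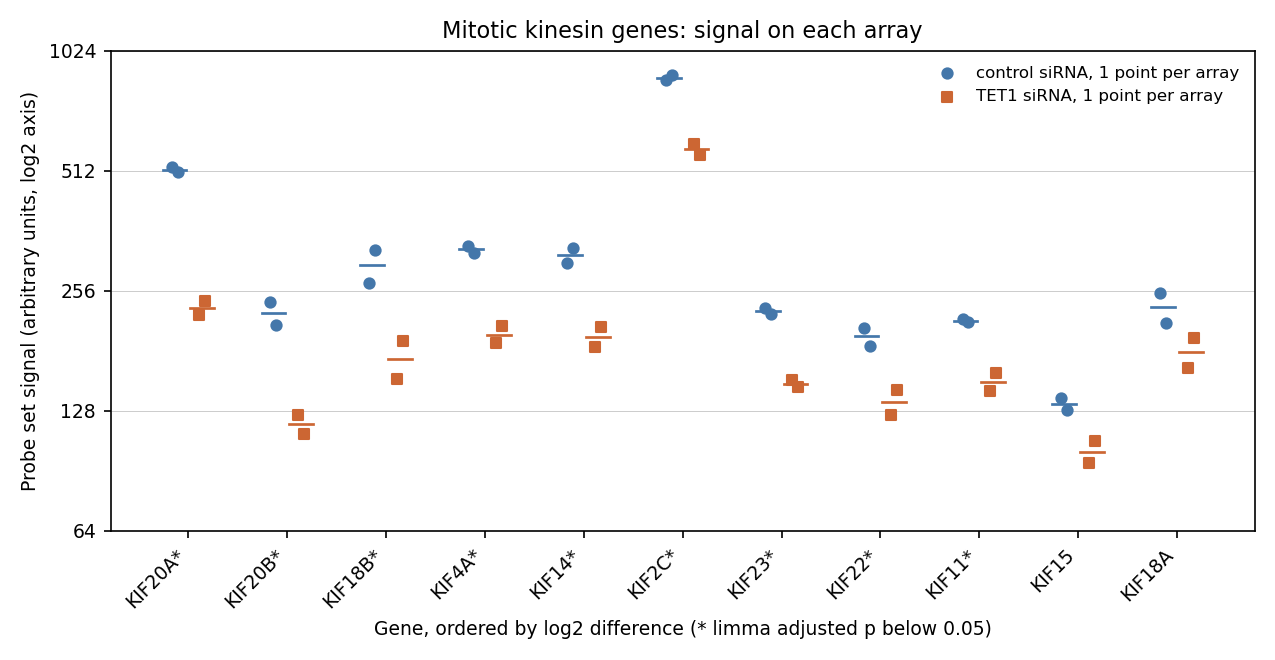
Probe set signal on each array (y axis, log2-scaled, arbitrary units) of the 11 mitotic kinesin genes tested, ordered by log2 difference. Circles are control siRNA arrays, squares TET1 siRNA arrays, lines the means of 2 arrays and asterisks an adjusted p below 0.05. In every gene shown both squares lie below both circles, from KIF20A (44.9% of control) to KIF18A (77.1%).

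Transport kinesins moved both ways. Of 15 tested, 3 fell, 4 rose and 8 did not pass, where 10.6% of all genes tested fell and 11.2% rose. The median log2 difference was 0.087, the value of a single gene (KLC1), and it was 0.28 without TET1 siRNA replicate 1, 0.18 without control siRNA replicate 2, 0.14 without TET1 siRNA replicate 2 and 0.036 without control siRNA replicate 1. The 3 falls were all in kinesin-1 (KIF5B, KLC2 and KLC3). Of the 4 rises, 2 were in kinesin-2 (KIF3A and KIF3B), 1 in kinesin-3 (KIF1B) and 1 in kinesin-1 (KIF5C). The difference between the mitotic and transport groups is given by these counts and medians and was not tested.

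Kinesin-1 fell in its main heavy chain. KIF5B, the heavy chain found in nearly all cells, read 1927.6 and 2240.6 on the control arrays and 1284.6 and 1196.7 after TET1 siRNA, or 59.5% of control (-0.74, SE 0.082, adjusted p = 1.04e-04). All 3 of its probe sets fell (-0.74, -0.76 and -0.55). KIF5C, a heavy chain enriched in neurons, rose from 122.1 and 135.4 to 188.5 and 164.6 (0.41, SE 0.13, adjusted p = 0.0385), close to the threshold. It did not pass when each array was left out in turn (adjusted p 0.0600 to 0.243), nor in the fit of single probe sets (adjusted p = 0.0504). Of 10 neuronal markers 4 lay above the filter. SYT1 rose (0.57), while TUBB3 (0.17), MAP2 (0.051) and SNAP25 (-0.11) did not pass. The summed signal of the list was 2908.2 and 3104.1 on the control arrays against 3687.6 and 3559.1, most of it TUBB3. STMN2, NEFL, NEFM, RBFOX3, ELAVL3 and ELAVL4 were below the filter on average. The part of these markers in the KIF5C value was not tested. KIF5A, the other neuronal heavy chain, was dim and its groups overlapped (25.5 and 20.8 against 11.9 and 31.5).

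Light chains, which link kinesin-1 to its cargo, differed among themselves. KLC3, a light chain known from sperm tails, fell from 118.0 and 147.6 to 42.1 and 29.1, or 26.8% of control (-1.53, SE 0.18, adjusted p = 1.52e-04). A second KLC3 probe set fell by 1.12 (90.7 and 99.0 against 31.9 and 38.6). The third was dim and lay the other way, at 15.5 and 24.3 against 37.9 and 31.2 (0.50, adjusted p = 0.153), and the mean of all 3 fell by 0.72. KLC2 fell from 163.3 and 135.1 to 96.3 and 88.2 (-0.61, SE 0.14, adjusted p = 0.00963). That call rests on a probe set that can bind related transcripts (suffix _x_at), and KLC2 did not pass without control siRNA replicate 1 (adjusted p = 0.0719) or TET1 siRNA replicate 2 (0.0615). KLC1, a light chain found in many tissues, read 558.7 and 600.7 against 640.0 and 593.2, with overlapping groups (0.087, 95% interval -0.099 to 0.27, adjusted p = 0.532). KLC4 also overlapped (70.2 and 54.5 against 42.7 and 63.0).

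Kinesin-2, the motor that carries cargo outward along cilia and moves endosomes, was higher. KIF3A rose from 106.4 and 119.2 to 253.1 and 216.1, a 2.08-fold change in mean signal (0.96, SE 0.13, adjusted p = 3.18e-04). Its partner chain KIF3B rose from 324.7 and 318.6 to 417.6 and 461.0 (0.43, SE 0.094, adjusted p = 0.00693), but did not pass without TET1 siRNA replicate 2 (0.36, adjusted p = 0.0685). The dimmer probe sets of these genes were also above 0 but did not pass (0.42 and 0.24). KIF3C, an alternative partner of KIF3A, read 79.4 and 88.9 against 101.8 and 119.8 without passing (0.34, interval 0.016 to 0.66, adjusted p = 0.129). KIF17 was below the filter. KIFAP3, which completes the complex of KIF3A and KIF3B, did not pass (-0.15, adjusted p = 0.358). Markers of ciliated cells were mostly dim in both groups. Of 9 measured 3 lay above the filter and none passed, and their summed signal was 100.5 and 103.8 against 101.6 and 105.1.

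In kinesin-3, a family of vesicle and organelle carriers, 1 of 5 tested genes passed, where 21.8% of all genes tested passed in either direction. KIF1B, a carrier of mitochondria and synaptic vesicle precursors, rose from 317.3 and 385.3 to 443.8 and 532.0 (0.46, SE 0.12, adjusted p = 0.0156). Its other tested probe sets were at 0.0037 and 0.15, and with the mean of all of them KIF1B was at 0.14 (adjusted p = 0.371). It did not pass without control siRNA replicate 1 (adjusted p = 0.110) or TET1 siRNA replicate 2 (0.136). KIF1C, a vesicle and mRNA carrier, read 161.2 and 190.1 against 235.1 and 218.9 (0.35, interval 0.086 to 0.61, adjusted p = 0.0579), and KIF16B, which moves early endosomes, read 59.6 and 68.3 against 89.7 and 81.1 (0.34, adjusted p = 0.148). In both the groups did not overlap, as upward in 30.9% of all genes tested. KIF13A, a carrier to recycling endosomes, was nearly level at 300.3 and 302.1 against 302.0 and 299.3 (-0.0025, interval -0.21 to 0.21). KIF13B was at 45.1 and 63.1 against 54.3 and 52.5, and KIF1A, a neuronal carrier, lay below the filter at 1.1 to 7.4. Leaving out control siRNA replicate 1 kept 2 of the 4 rises among transport kinesins, and leaving out TET1 siRNA replicate 2 kept 1, that of KIF3A.

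**Figure D3:**
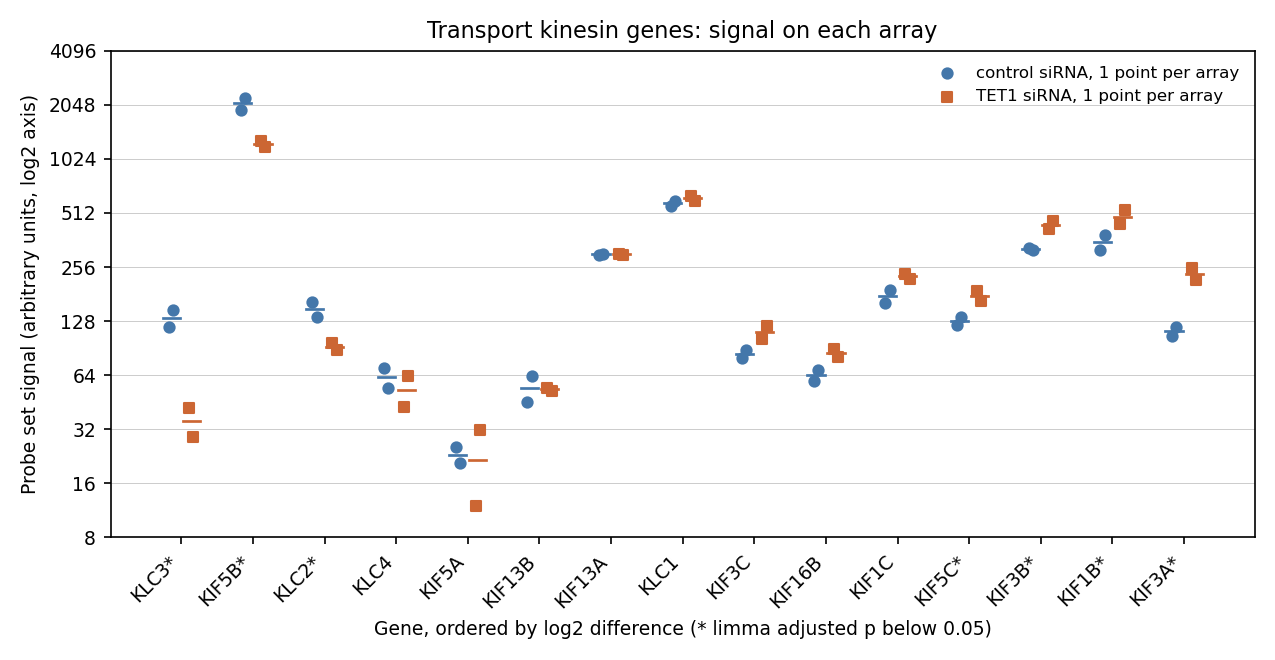
Probe set signal on each array (y axis, log2-scaled, arbitrary units) of the 15 transport kinesin genes tested, ordered by log2 difference, with circles for control siRNA arrays, squares for TET1 siRNA arrays, lines for means of 2 arrays and asterisks for an adjusted p below 0.05. The groups separate downward in KLC3, KIF5B and KLC2, overlap in 5 genes in the middle, and separate upward in the 7 genes on the right, where 28.1% of all genes tested separated downward and 30.9% upward.

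Of the 6 tested kinesins outside these roles, 1 fell, 1 rose and 4 did not pass, where 21.8% of all genes tested passed in either direction. KIF2A, a depolymerase of spindle poles and growing neurites, was higher at 503.1 and 517.3 against 440.0 and 397.1 (0.28, SE 0.090, adjusted p = 0.0462). The call is marginal: it was lost without control siRNA replicate 2 (adjusted p = 0.222), TET1 siRNA replicate 1 (0.123) or TET1 siRNA replicate 2 (0.183), with quantile normalization (0.0621) and with median centring (0.0510). The dimmer KIF2A probe set was at 0.029. KIF25 fell by 0.98 (adjusted p = 0.0180) from 25.0 and 25.9 to 3.2 and 7.1, through a dim _x_at probe set that passed the filter only by its control signals. The KIF25 call was lost without either control siRNA array (adjusted p = 0.0777 and 0.0889) or TET1 siRNA replicate 1 (0.0924). KIF21A, which restrains microtubule growth, was level at 373.8 and 396.3 against 366.1 and 395.2 (-0.016, interval -0.22 to 0.19). Its relative KIF21B was dim, at 20.5 and 13.4 against 31.3 and 29.3 (0.50, adjusted p = 0.151). KIF26A (44.4 and 58.0 against 46.0 and 51.0) and KIF12 (21.8 and 17.2 against 18.2 and 16.4) overlapped between groups, and KIF26B lay below the filter.

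Most kinesins of cilia and Hedgehog signalling lay below the filter on dim signals, which is not a call of absence. KIF6 and KIF19 (motile cilia), KIF7 (Hedgehog signalling) and KIF24 (centriole capping) lay below the filter. KIF9, a motor of motile cilia, was read by 3 _x_at probe sets above the filter, and its brightest gave 245.1 and 209.1 against 260.7 and 255.7 (0.18, adjusted p = 0.296). Another of them lay the other way, at 197.3 and 124.2 against 116.6 and 72.3 (-0.68, adjusted p = 0.0629). KIF27, a relative of KIF7, was dim and overlapped (13.2 and 18.2 against 18.3 and 12.9). Of the antisense RNAs, KIF9-AS1 lay above the filter (22.4 and 39.5 against 29.4 and 29.3, adjusted p = 0.955), and KIF1C-AS1, KIF23-AS1 and KIF25-AS1 lay below it.

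**Figure D4:**
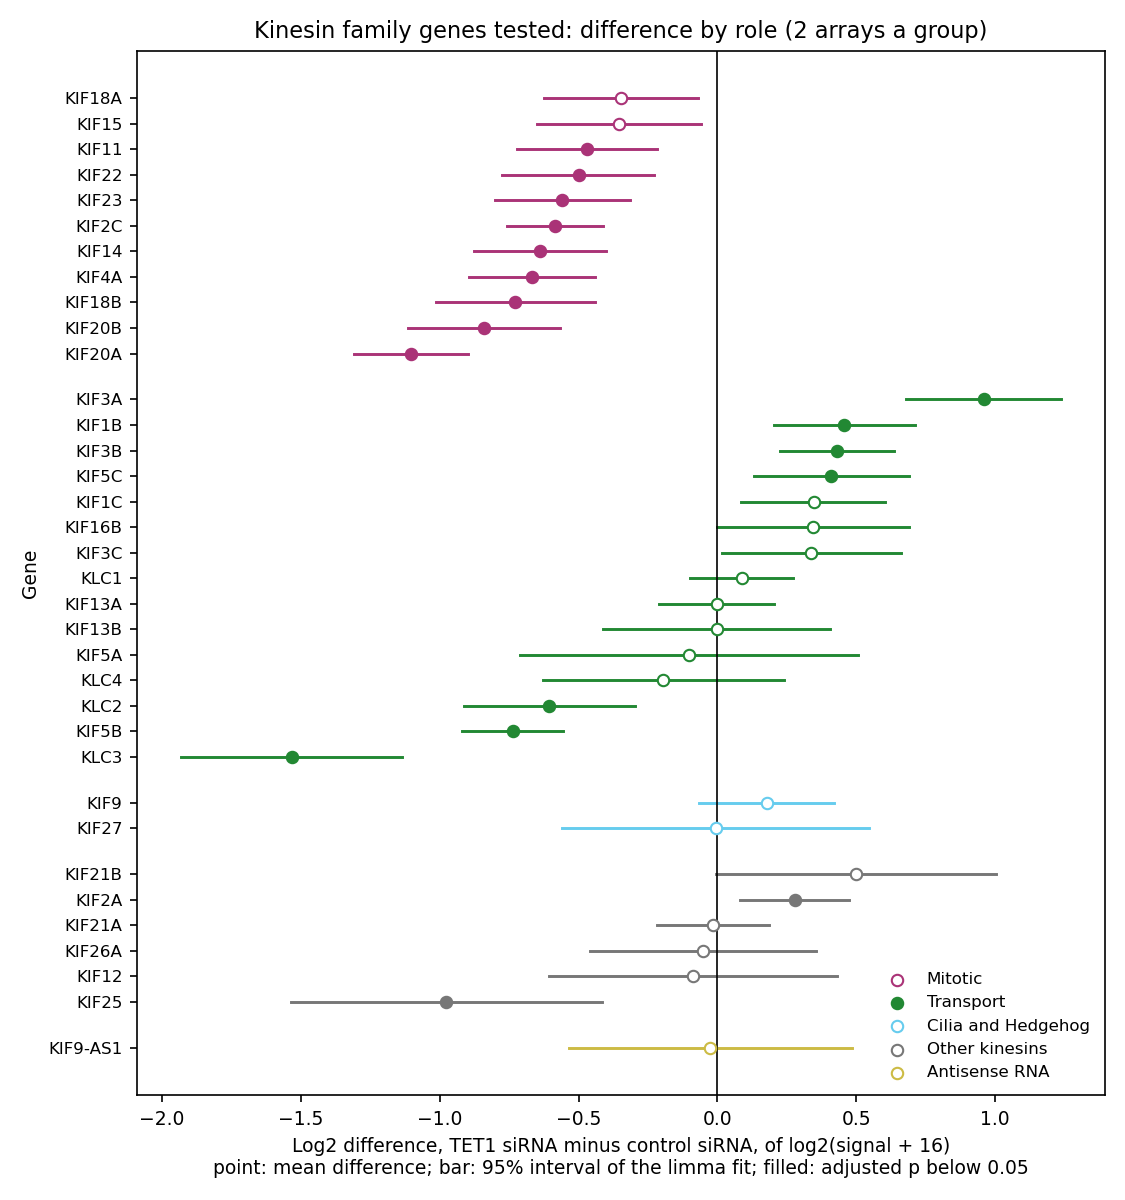
Log2 difference, TET1 siRNA minus control siRNA (x axis), of each of the 35 kinesin family genes tested, grouped by role, with bars for the 95% interval of the limma fit and filled points for an adjusted p below 0.05. The 11 genes classed as mitotic lie to the left of 0 (-1.10 to -0.35), KIF2A of the other class lies to the right (0.28), and transport kinesins run from -1.53 (KLC3) to 0.96 (KIF3A).

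Counted over the family, 13 genes fell, 5 rose and 17 did not pass, and 11 lay below the filter. KIF25, counted as a fall here and among the probe sets, passed the filter only by its control signals. Over all genes tested, 10.6% fell and 11.2% rose. Leaving out control siRNA replicate 1 or TET1 siRNA replicate 1 gave 3 rises, and leaving out TET1 siRNA replicate 2 gave 1. With every probe set tested by itself, 19 kinesin probe sets fell and 3 rose of 62 tested, where 8.31% of all probe sets tested fell and 7.76% rose. Without TET1 siRNA replicate 2, 1 kinesin probe set rose. In no kinesin gene did probe sets pass in opposite directions. KIF2C, KIF5B, KIF14 and KIF22 fell in each of their tested probe sets, and KLC3 in 2 of 3. For KIF1B, KIF3A and KIF3B only the brightest probe set passed.

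**Figure D5:**
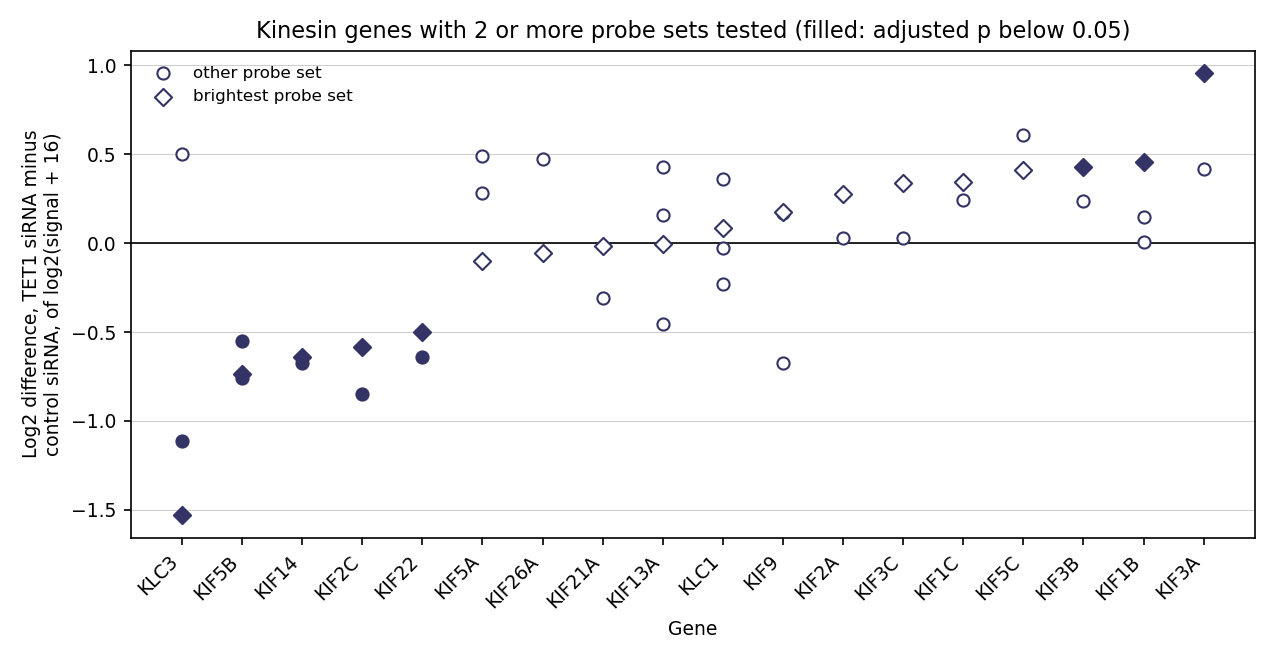
Log2 difference (y axis) of every tested probe set of the 18 kinesin genes with at least 2 of them, diamonds for the brightest probe set, circles for the others, filled where the adjusted p was below 0.05 with each probe set tested by itself. Filled points of a gene lie on the same side of 0 in every gene, and the third probe set of KLC3 (0.50, not passing) lies opposite to the 2 that fell.

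Partners of the mitotic kinesins were lower in the same samples. Of 23 tested spindle partners and regulators, 18 fell, none rose and 5 did not pass, where 10.6% of all genes tested fell, and the median log2 difference was -0.54. CDCA8 and BIRC5, subunits of the chromosomal passenger complex that KIF20A carries, fell by 1.09 and 0.94. PRC1, the microtubule bundler that binds KIF4A, fell from 821.5 ± 7.92 to 465.9 ± 29.5 (SD, n = 2; -0.80, limma adjusted p = 6.66e-05), and NUSAP1 fell by 0.72. RACGAP1, the other subunit of centralspindlin beside KIF23, fell by 0.64. ECT2, which centralspindlin activates, was at 0.21 (adjusted p = 0.0804). This list overlaps the well-known late cell cycle genes, so its fall adds no independent sign of direction. Of 5 tested motors of the kinesin family outside the naming rule, 1 fell (list median -0.13), beside 10.6% falls over all genes tested. That was KIFC1, a motor that focuses spindle poles, which fell by 0.70. CENPE, which carries chromosomes to the spindle equator, did not pass (-0.28, adjusted p = 0.167). KIFC2, KIFC3 and STARD9 did not pass either.

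Of 17 tested cargo adaptors of the transport kinesins, 3 fell and 2 rose (median -0.079), shares near those of all genes tested (10.6% fell and 11.2% rose). KTN1 (kinectin), a membrane anchor for kinesin-1, fell by 0.60 from 1483.7 ± 15.4 to 970.0 ± 1.63 (SD, n = 2). TRAK2 and RHOT1, which tie kinesin-1 to mitochondria, fell by 0.62 and 0.31. SPAG9 (JIP4), a scaffold between motors and vesicles, rose by 0.83 from 650.3 ± 40.3 to 1164.7 ± 33.9 (SD, n = 2), and KIFBP, which binds and inhibits several kinesins, rose by 0.27. Dynein and dynactin, the motor that runs toward the minus end, had 6 falls and 6 rises among 31 tested, with a median of 0.0027, beside 10.6% falls and 11.2% rises over all genes tested. NDE1 (-0.75), HOOK1 (-0.45), ACTR10 (-0.44) and NIN (-0.43) had the largest changes. The largest rise was that of DYNLT1 (0.43).

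Of 24 tested regulators of late cell cycle promoters, 3 fell and 3 rose, with a median of -0.17, shares near the 10.6% and 11.2% of all genes tested. CDKN1A, the p21 inhibitor of cyclin-dependent kinases, rose by 0.79 from 957.6 ± 15.9 to 1663.6 ± 56.1 (SD, n = 2), RB1 rose by 0.57 and TFDP2 by 0.62. E2F8 fell by 0.70, RBBP4 (a MuvB subunit) by 0.65 and TFDP1 by 0.44. FOXM1 (-0.47, adjusted p = 0.0591) and MYBL2 (-0.43, adjusted p = 0.183), the activators that join MuvB at CHR promoters, did not pass, and neither did the NF-Y subunit genes NFYA, NFYB and NFYC.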

How the data were processed

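The deposited values are a probe set intensity on a linear scale, which the authors had scaled array by array: the mean without the top and bottom 2% of values was 100.01 on each of 4 arrays. How background was handled, and by which program, is not stated in the labels. Per the labels' protocols, cDNA was primed with oligo(dT), so signals come mainly from 3' ends.

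Of 54675 probe sets, 62 controls were left out, and 41091 had 1 gene symbol in the platform annotation (41037 matched to RefSeq GRCh38.p14 names). A gene was its probe set of highest mean log2(signal + 16), and the 12389 of 19775 genes above the median of all probe sets (4.864, a signal of 13.1) were tested. The test was limma 3.58.1 in R 4.3.3 (lmFit, eBayes with a variance trend), two-sided, with Benjamini-Hochberg adjustment over all tested genes. The fit has 2 residual degrees of freedom plus a prior of 9.38, and with 2 arrays a group the smallest two-sided p of an exact permutation test is 0.33. The number of arrays limits the precision. Tested on simulated data of 12389 genes, the script called 72% of genes given a log2 change of -1 and 22% at -0.5. It called 36% at 0.5 and 82% at 1. Far fewer genes were changed there (107 calls, against 2706 in the data). The adjustment depends on that number, so these shares do not give the power in the data.

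The members, role classes and lists were chosen with earlier results of these data known, so lists are described by counts and medians. Every member is named; of each related list, up to 4 with the largest change past the threshold, all that passed the other way where they were 5 or fewer, and others chosen after their values were seen (ECT2, CENPE, KIFAP3, RACGAP1, FOXM1, MYBL2 and those named as not passing). Promoter stretches were read from RefSeq windows, of which 92.2% of single-window genes start at the annotated gene end. Figures were drawn with matplotlib 3.10.9.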

Additional observations from a re-analysis of the deposited data

How the results depend on the processing

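The alternatives were the other normalizations, pseudocounts, variance models, filters, probe set choices, thresholds and left-out arrays. Among the 18 kinesin genes that rose or fell, no sign was turned in any alternative in which the gene was tested. That was largely fixed beforehand. The groups of these genes did not overlap, so dropping 1 array could not turn a sign. Changing only the variance model, filter or threshold leaves the difference as it was. Leaving out 1 array in turn gave 9 to 12 kinesin genes lower and 1 to 4 higher (3 without control siRNA replicate 1 or TET1 siRNA replicate 1, 1 without TET1 siRNA replicate 2), 7 to 9 mitotic and 2 to 3 transport kinesins lower, 1 to 4 transport kinesins higher, 14 to 18 kinesin probe sets lower and 1 to 4 higher. The mitotic median was then -0.60 to -0.58 and the transport median 0.036 to 0.28, and TET1 was at -1.30 to -1.27. A group left with 1 array takes its spread from the other one. Over all genes tested, too, fewer were called in each direction in each of these fits than in the main analysis.

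Without moderation limma called no kinesin gene in either direction (0 mitotic, 0 transport, 0 probe sets, 0 related genes), nor any other gene tested. TET1 kept -1.28 with adjusted p = 0.0999. Only 2 residual degrees of freedom remain in that fit. At its unadjusted p below 0.05, 12 kinesin genes were lower and 2 higher. Of all 12389 genes tested, 2671 passed there in either direction. Without a variance trend 9 kinesin genes were lower (6 mitotic) and 1 was higher (1 transport). Over all 12389 genes tested 535 were then lower and 437 higher, against 1313 and 1393 in the main analysis. In that setting 1 probe set was higher, 6 were lower and 17 related genes were lower (31 in the main analysis). With no filter 2 kinesin genes were higher (2 transport), where 899 of all 19775 genes were. With the mean of all probe sets 2 kinesin genes were higher (2 transport), where 772 of all 11567 tested were. The mitotic median was then -0.66. Without _x_at and _s_at probe sets 8 kinesin genes were lower (6 mitotic) and 3 higher, where 908 and 882 of all 9554 tested were. KIF20B and KIF22 have only such probe sets. The medians were then -0.64 (mitotic) and 0.34 (transport), and 19 related genes were lower. At 1.5-fold or more on the log2(signal + 16) scale 1 was higher (1 transport), 5 mitotic kinesins and 15 related genes were lower, and 1 probe set was higher. With an upper-quartile filter 6 probe sets were higher and the transport median was 0.34. For the other shifts the cause was not tested.

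Arrays of the same replicate number showed no shared shift (correlation of deviations from group means 0.0058 over genes). That value cannot show whether they were prepared as pairs. With the replicate number as a block 13 kinesin genes were lower, 9 of them mitotic, and 5 were higher. Over all 12389 genes tested 1348 were then lower and 1442 higher.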
